A study of Arabidopsis thaliana with 32 samples.

Results

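VQ-motif proteins are a plant family of mostly small nuclear proteins named for a short conserved stretch that contains valine and glutamine. Through that stretch many of them bind WRKY transcription factors, and several are phosphorylated by MAP kinases, so that the family is studied as a set of cofactors that tune WRKY-dependent transcription. In Arabidopsis, members have been linked to defence, seed development, growth and responses to salt and other abiotic stress. The genes described here are AT1G17147, AT1G21326, AT1G80450 and AT2G22880, which are 4 of the 28283 genes tested on the arrays. They were taken as the probe sets that name one of these loci in the array annotation, and each has 1 probe set of its own. The loci were themselves picked with their expression values against the control known: AT1G17147 was chosen by its averages in NaCl and polyethylene glycol, AT2G22880 was chosen by its dose slopes, and for AT1G21326 and AT1G80450 the comparison behind the choice is not recorded. Their differences from the control are therefore given as a description with standard errors and without a test.

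The arrays measured total root RNA of 16-day-old wild-type Columbia-0 seedlings of Arabidopsis thaliana, raised on agar and then in hydroponic solution, and collected 15 min after a change of solution. The control plants were moved to the same solution without an added solute, and the treated plants to solution with NaCl at 25, 50, 75 or 100 mM, sorbitol (50, 100 or 150 mM), polyethylene glycol 8000 (PEG; 75, 100, 125 or 150 mM) or ethylene glycol (50, 100, 150 or 200 mM). NaCl is a salt, sorbitol a sugar alcohol that enters cells slowly, PEG a polymer and ethylene glycol a small alcohol that crosses membranes readily. Each of the 16 groups had 2 arrays, called replicate 1 and replicate 2 by the series of numbers in their titles, and nothing in the labels says that they came from separate plants or cultures, so a p-value here refers to the scatter among the deposited samples, and some of that scatter may be technical. Doses are nominal and as labelled, and the true scale of the PEG doses is not known from the sources used here. Values are deposited normalised values read as log2, and a fold below holds only on that reading.

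The 2 series differed for most of the array: 62.8% of all genes tested differed between them at an adjusted p of 0.05. The standard errors (SE) of the members' differences from the control and dose slopes come from a fit with the series as block. Without the block they were larger. For AT1G17147 the SE was 0.49 instead of 0.16 for the NaCl slope and 0.25 instead of 0.08 for the ethylene glycol slope. PEG 150 mM replicate 2 lay farthest out on the second principal component, which held 5.97% of the variance against 50.4% for the first. Of 10 root marker genes 1 had a probe set of its own, EXPA7, a root-hair expansin gene, at 6.57 to 8.08. Of 6 shoot marker genes FMA and SPCH, both regulators of stomatal development, were measured, at 1.26 to 2.21 and 1.1 to 2.09. The arrays are of whole roots, so fewer cells of a type and less RNA per cell cannot be told apart.

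AT2G22880 was higher at the top dose of all 4 solutes. The control arrays read 5.24 in replicate 1 and 3.93 in replicate 2. With NaCl at 25, 50, 75 and 100 mM the values were 4.39, 5.48, 5.93 and 6.59 in replicate 1 and 4.36, 5.21, 5.54 and 5.87 in replicate 2. The values climbed at each NaCl step in both replicates, but replicate 1 at 25 mM lay below its own control. Sorbitol at 50, 100 and 150 mM gave 5.35, 5.40 and 6.57 in replicate 1 and 4.39, 4.72 and 5.63 in replicate 2. For PEG at 75, 100, 125 and 150 mM the arrays read 5.51, 5.61, 5.56 and 6.46 in replicate 1 and 4.73, 5.19, 5.16 and 5.74 in replicate 2. The PEG arrays were close to each other from 100 to 125 mM and higher at 150 mM in both replicates. Under ethylene glycol at 50, 100, 150 and 200 mM the values were 4.41, 6.03, 5.70 and 6.65 in replicate 1 and 4.32, 4.65, 4.98 and 5.58 in replicate 2. The groups with both arrays above both control arrays were NaCl 75 and 100 mM, sorbitol 150 mM, PEG 150 mM and ethylene glycol 200 mM.

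Measured against the control, AT2G22880 was 3.13-fold higher at NaCl 100 mM, 2.86-fold at sorbitol 150 mM, 2.86-fold at PEG 150 mM and 2.89-fold at ethylene glycol 200 mM, each with an SE of 0.24 on the log2 scale. Its dose slope, with the control at 0 mM and per mM of solute, so that the pair of ions of NaCl counts once, was 1.86 log2 units per 100 mM for NaCl (SE 0.21), 0.95 for sorbitol (SE 0.15), 0.89 for PEG (SE 0.15) and 0.81 for ethylene glycol (SE 0.11). The slopes were positive in each replicate, at 1.70 and 2.02 for NaCl, 0.81 and 1.09 for sorbitol, 0.63 and 1.15 for PEG, and 0.82 and 0.79 for ethylene glycol. Without the control arrays, the slopes over the treated doses alone were 2.38, 1.23, 1.16 and 1.05 in the same order of solutes. In the order of group means NaCl 100 mM stood first at 6.23, followed by ethylene glycol 200 mM at 6.115 and by PEG 150 mM and sorbitol 150 mM at 6.10, and these 4 neighbours lay closer together than the SE of a difference, 0.24. At the other end the 2 lowest means were ethylene glycol 50 mM at 4.365 and NaCl 25 mM, both below the control mean. The replicates disagreed there: both groups lay below the control in replicate 1 and above it in replicate 2.

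AT1G21326 was also higher with the top dose of each solute, and its highest group was NaCl 100 mM. The control arrays read 6.31 in replicate 1 and 5.43 in replicate 2. With 25, 50, 75 and 100 mM NaCl the values were 6.59, 6.92, 6.56 and 7.36 in replicate 1 and 5.67, 6.71, 6.98 and 6.80 in replicate 2. The replicates disagreed on NaCl 75 mM, which was the lowest NaCl array of replicate 1 and the highest of replicate 2. The sorbitol arrays at 50, 100 and 150 mM read 6.36, 6.65 and 7.04 in replicate 1 and 5.51, 6.05 and 6.49 in replicate 2. PEG at 75, 100, 125 and 150 mM gave 6.23, 6.43, 6.22 and 7.04 in replicate 1 and 5.85, 6.03, 5.94 and 6.68 in replicate 2. Sorbitol values were higher at each step of dose in both replicates, whereas the PEG values stayed close together up to 125 mM and stood higher at 150 mM. Ethylene glycol at 50, 100, 150 and 200 mM gave 6.18, 6.54, 6.50 and 6.88 in replicate 1 and 5.63, 5.65, 6.16 and 6.25 in replicate 2. Both arrays lay above both control arrays at NaCl 50, 75 and 100 mM, sorbitol 150 mM and PEG 150 mM.

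Relative to the control, AT1G21326 was 2.31-fold higher at NaCl 100 mM, 1.99-fold at PEG 150 mM, 1.86-fold at sorbitol 150 mM and 1.62-fold at ethylene glycol 200 mM (SE 0.20 on the log2 scale). Counting the pair of ions of NaCl once, the dose slopes per 100 mM were 1.22 log2 units for NaCl (SE 0.18), 0.62 for sorbitol (SE 0.13), 0.51 for PEG (SE 0.12) and 0.36 for ethylene glycol (SE 0.09). All of them were positive in both replicates, but the NaCl slope was 0.83 in replicate 1 and 1.62 in replicate 2. Group means ran from 5.87 in the control, the lowest of the 16 groups, to 7.08 at NaCl 100 mM, and 13 of the 15 gaps between neighbours in that order were smaller than the SE of a difference, 0.20.

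The highest group means of AT1G17147 were in PEG and NaCl. The control arrays read 4.04 in replicate 1 and 3.07 in replicate 2, and the control had the lowest mean of the 16 groups. The PEG arrays at 75, 100, 125 and 150 mM read 4.5, 5.25, 5.12 and 5.51 in replicate 1 and 3.55, 4.21, 4.31 and 4.5 in replicate 2. NaCl at 25, 50, 75 and 100 mM gave 4.41, 4.55, 5.04 and 4.88 in replicate 1 and 3.46, 3.88, 4.24 and 4.33 in replicate 2. Within each replicate every PEG and NaCl array was above the control. Sorbitol at 50, 100 and 150 mM read 4.38, 4.11 and 4.86 in replicate 1 and 3.68, 3.69 and 4.08 in replicate 2. Ethylene glycol at 50, 100, 150 and 200 mM read 3.93, 4.2, 4.40 and 4.61 in replicate 1 and 3.29, 3.23, 3.81 and 3.44 in replicate 2. Averaged over doses, ethylene glycol was the solute nearest to the control, and its replicate 1 array at 50 mM was the only treated array below the control of its own replicate. The groups whose arrays both lay above both control arrays were NaCl 75 and 100 mM, sorbitol 150 mM and PEG 100, 125 and 150 mM.

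Compared with the control, AT1G17147 was 2.73-fold higher at PEG 150 mM, 2.07-fold at NaCl 100 mM, 1.89-fold at sorbitol 150 mM and 1.39-fold at ethylene glycol 200 mM (SE 0.18 on the log2 scale). NaCl and ethylene glycol reached their highest means 1 dose lower, at 2.12-fold for 75 mM and 1.46-fold for 150 mM. Per 100 mM, with the pair of ions of NaCl counted once, its slope was 1.12 log2 units for NaCl (SE 0.16), 1.00 for PEG (SE 0.11), 0.52 for sorbitol (SE 0.11) and 0.29 for ethylene glycol (SE 0.08). The PEG slope was 0.99 in replicate 1 and 1.01 in replicate 2, the ethylene glycol slope 0.32 and 0.25, and the NaCl slope 0.92 and 1.32. Averaged over doses the difference from the control was 1.06 log2 units for PEG, 0.79 for NaCl, 0.58 for sorbitol and 0.31 for ethylene glycol. In the order of the group means 12 of the 15 neighbouring gaps were smaller than the SE of a difference, 0.18.

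For AT1G80450 the PEG groups were the ones that stood apart from the control. The control arrays read 3.88 in replicate 1 and 4.47 in replicate 2. With PEG at 75, 100, 125 and 150 mM the values were 4.68, 5.0, 4.78 and 4.71 in replicate 1 and 5.54, 5.38, 5.52 and 5.16 in replicate 2. All 8 PEG arrays lay above both control arrays, and within each replicate they lay above every array of another group, which reached 4.22 in replicate 1 and 4.75 in replicate 2. NaCl at 25, 50, 75 and 100 mM gave 4.22, 4.07, 4.2 and 4.01 in replicate 1 and 4.44, 4.75, 4.46 and 4.06 in replicate 2. Sorbitol at 50, 100 and 150 mM gave 3.85, 4.09 and 4.19 in replicate 1 and 4.28, 4.26 and 4.34 in replicate 2. NaCl and sorbitol arrays thus lay on both sides of the control of their replicate. Ethylene glycol at 50, 100, 150 and 200 mM read 3.84, 3.79, 3.74 and 3.71 in replicate 1 and 4.36, 4.44, 4.26 and 4.02 in replicate 2. Each of the 8 ethylene glycol arrays was below the control of its replicate.

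The PEG difference of AT1G80450 was not graded by dose. It was 1.91-fold at 75 mM, 2.02-fold at 100 mM, 1.97-fold at 125 mM and 1.69-fold at 150 mM (SE 0.18 on the log2 scale). The average over PEG doses was 0.92 log2 units above the control (SE 0.14). The slope with the control at 0 mM was 0.57 per 100 mM (SE 0.11), but over the treated doses alone it was -0.23 (SE 0.23). The slopes for the other solutes were -0.11 for NaCl (SE 0.16), 0.08 for sorbitol (SE 0.12) and -0.14 for ethylene glycol (SE 0.08), and those for NaCl and sorbitol differed in sign between the replicates. In the order of group means the 4 PEG groups came first, at 4.94 to 5.19, and the next was NaCl 50 mM at 4.41. Of the 15 neighbouring gaps, 14 were below the SE of a difference, 0.18.

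**Figure D1:**
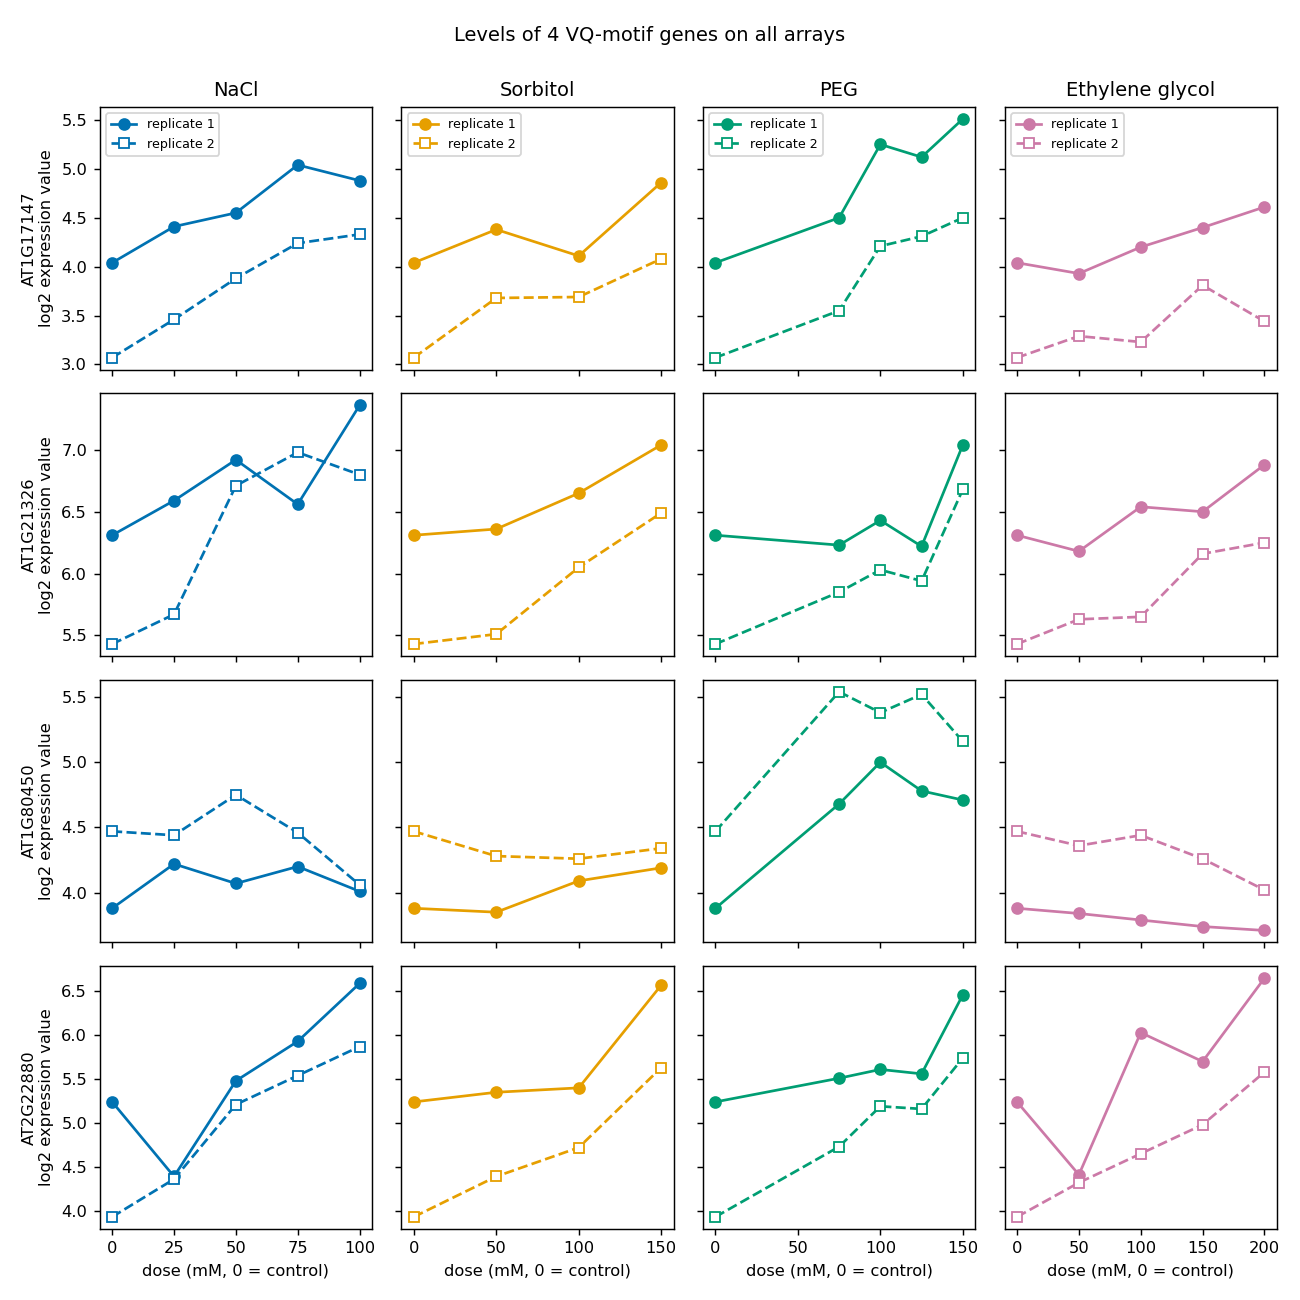
Log2 expression values of AT1G17147, AT1G21326, AT1G80450 and AT2G22880 (y axis) in the 16 groups (x axis, solute and dose in mM), with 1 point per array and the replicates marked apart. For AT1G80450 the 8 PEG arrays lie above the rest of their replicate, while AT2G22880 climbs to 6.59 and 5.87 at NaCl 100 mM.

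**Figure D2:**
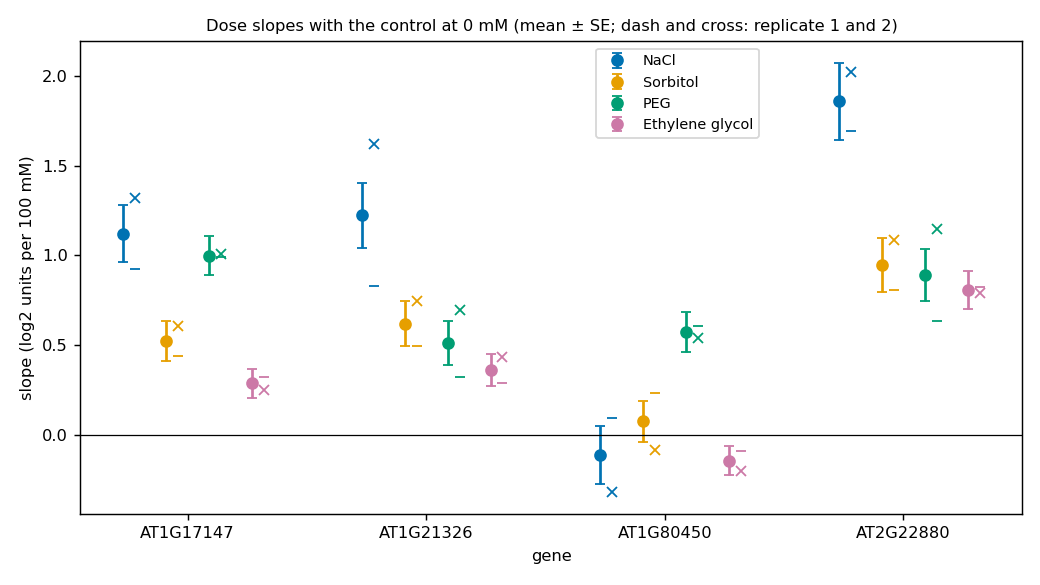
Dose slope of each gene for each solute with the control at 0 mM, in log2 units per 100 mM (points, bars show the SE from the blocked fit), with the slopes of replicate 1 (dashes) and replicate 2 (crosses) beside them. AT2G22880 has its highest slope per mM with NaCl at 1.86, and AT1G80450 has its highest with PEG at 0.57, which becomes -0.23 over the treated doses alone. Slopes are per mM of solute, and NaCl gives a pair of ions.

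The solutes were then compared with each other, in 6 contrasts that leave the control arrays out. They use the treated arrays whose values were known when the genes were picked and they share arrays among themselves, so they are no independent evidence. AT1G17147 was itself picked by its averages in NaCl and PEG. Its p-values in contrasts with these solutes reuse the values that picked it and are a description only. For AT1G21326 and AT1G80450 the comparison behind the choice is not recorded, so the same may hold for their p-values. Of the 24 tests on members 8 passed an adjusted p of 0.05 with a replicate block for the title-number series. Among the 8 are contrasts of AT1G17147 with NaCl or PEG, which are a description only. Without the block 0 of the 24 passed, with a lowest adjusted p of 0.605.

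PEG and ethylene glycol were compared at 100 and 150 mM as labelled, and equal osmolarity cannot be assumed for PEG. Of all genes 0.131% differed, and the members that passed were AT1G17147 and AT1G80450. AT1G80450 was 2.01-fold higher in PEG, at a mean of 5.06 against 4.06 (difference 1.01 log2 units, 95% interval 0.74 to 1.27, adjusted p = 0.000157, unblocked 0.605). The difference was 1.09 in replicate 1 and 0.92 in replicate 2. AT1G17147 was 1.94-fold higher in PEG, at 4.87 against 3.91 (difference 0.96, interval 0.70 to 1.22, adjusted p = 0.000187, unblocked 0.837), with 1.08 and 0.84 in the replicates. With 1 array left out the difference ran from 0.95 to 1.06 for AT1G80450 and from 0.90 to 1.02 for AT1G17147. The p-value of AT1G17147 reuses the PEG average that picked it. For AT1G80450 the comparison behind the choice is not recorded, and its p-value may reuse it too. AT1G21326 and AT2G22880 did not pass, with differences of 0.33 (interval 0.04 to 0.62, adjusted p = 0.285) and 0.41 (interval 0.06 to 0.76, adjusted p = 0.269).

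Sorbitol and PEG at 100 and 150 mM, with the same limit on the PEG doses, differed for 0.0778% of all genes and for the same members. AT1G80450 was 1.79-fold lower in sorbitol, at 4.22 against 5.06 (difference -0.84, interval -1.11 to -0.58, adjusted p = 0.00439, unblocked 1), and lower in both replicates. For AT1G17147 sorbitol was 1.61-fold lower, at 4.19 against 4.87 (difference -0.68, interval -0.94 to -0.42, adjusted p = 0.0209, unblocked 1). This second call was lost when 1 array was left out for 5 of 8 arrays: sorbitol 100 mM replicate 1 (adjusted p = 0.158), sorbitol 150 mM replicate 1 (0.108) and replicate 2 (0.0721), PEG 100 mM replicate 1 (0.152) and PEG 150 mM replicate 1 (0.0588). AT1G21326 had nearly equal means, with an interval for the difference from -0.28 to 0.30 (adjusted p = 0.991), and for AT2G22880 the interval ran from -0.52 to 0.18 (adjusted p = 0.829).

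NaCl and PEG were compared at 75 and 100 mM as labelled, and 0.325% of all genes differed. These are the highest NaCl doses but the lowest PEG doses. These doses count the pair of ions of NaCl once and the true scale of the PEG doses is not known, so equal osmolarity cannot be assumed. AT1G21326 was 1.73-fold higher in NaCl, at 6.93 against 6.14 (difference 0.79, interval 0.50 to 1.08, adjusted p = 0.00574, unblocked 1), by 0.63 in replicate 1 and 0.95 in replicate 2. Without NaCl 75 mM replicate 2 the adjusted p was 0.065. AT1G80450 went the other way, at 4.18 in NaCl against 5.15 in PEG (difference -0.97, interval -1.23 to -0.70, adjusted p = 0.000113, unblocked 0.752). AT2G22880 was higher in NaCl by 0.72 (interval 0.38 to 1.07) without passing, at an adjusted p of 0.0586. For AT1G17147 the difference was 0.25 (interval -0.01 to 0.50, adjusted p = 0.688). At PEG 150 mM, outside this contrast, AT1G21326 had a mean of 6.86, against 6.77 at NaCl 75 mM and 7.08 at NaCl 100 mM.

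NaCl and ethylene glycol were compared over all 4 doses at equal nominal osmolarity, counting both ions of the salt, and 0.537% of all genes differed. AT1G17147 was 1.40-fold higher in NaCl, at 4.35 against 3.86 (difference 0.49, SE 0.09, adjusted p = 0.00889, unblocked 1). With 1 array left out the difference ran from 0.44 to 0.53. This gene was picked by its NaCl and PEG averages, so its p-value is a description only. AT1G21326 was 1.39-fold higher, at 6.70 against 6.22 (difference 0.48, SE 0.10, adjusted p = 0.0277, unblocked 1). It did not pass without NaCl 25 mM replicate 1 (adjusted p = 0.092), NaCl 100 mM replicate 1 (0.0775), ethylene glycol 50 mM replicate 1 (0.0613) or replicate 2 (0.0697), ethylene glycol 150 mM replicate 1 (0.0753), ethylene glycol 100 mM replicate 2 (0.0853) or ethylene glycol 200 mM replicate 2 (0.0732). AT1G80450 and AT2G22880 did not pass, with intervals of 0.07 to 0.44 (adjusted p = 0.176) and -0.11 to 0.38 (adjusted p = 0.629).

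None of the members passed in limma in the 2 remaining contrasts. NaCl at 50 and 75 mM against sorbitol at 100 and 150 mM, again equal in nominal osmolarity, differed for 0.0141% of all genes. The intervals were -0.02 to 0.50 for AT1G17147, -0.06 to 0.53 for AT1G21326, -0.12 to 0.42 for AT1G80450 and -0.39 to 0.31 for AT2G22880, with adjusted p from 0.791 to 0.989. Sorbitol against ethylene glycol at 50, 100 and 150 mM differed for 0.315% of all genes. There the sorbitol mean was higher by 0.32 for AT1G17147 (interval 0.11 to 0.53, adjusted p = 0.14), by 0.24 for AT1G21326 (0.00 to 0.48, adjusted p = 0.313), by 0.10 for AT1G80450 (-0.12 to 0.31, adjusted p = 0.672) and by 0.33 for AT2G22880 (0.05 to 0.61, adjusted p = 0.246).

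**Figure D3:**
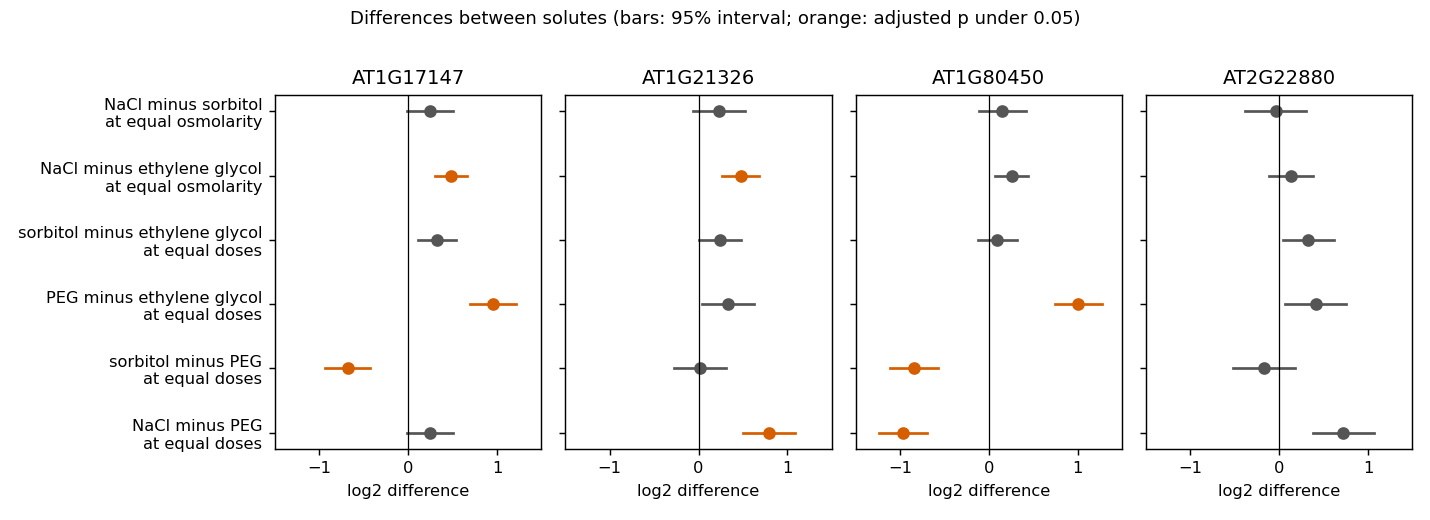
Differences between solutes in log2 units (x axis) with 95% intervals, for 6 contrasts and the 4 VQ genes. Orange points and bars passed an adjusted p of 0.05 in the blocked fit, and grey ones did not. AT1G80450 in PEG against ethylene glycol, at 1.01, has the largest difference, and AT2G22880 passed in no contrast.

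The members also differed between the title-number series, as did 62.8% of all genes. AT1G17147 was lower in replicate 2 by 0.81 log2 units, at a mean of 3.80 against 4.61 over the 16 groups (SE 0.06, adjusted p = 8.02e-12). AT2G22880 was lower by 0.68 (SE 0.08, adjusted p = 7.52e-08) and AT1G21326 by 0.50 (SE 0.07, adjusted p = 7.7e-07). AT1G80450 went the other way, at 4.61 in replicate 2 against 4.17 in replicate 1 (difference 0.44, SE 0.06, adjusted p = 1.44e-06). Across the 16 groups the 2 series correlated at r = 0.895 for AT1G17147, 0.892 for AT1G80450, 0.817 for AT2G22880 and 0.736 for AT1G21326, which describes groups that share a series and a control. A difference in dose slope between the series was tested for each member and solute in a model whose lines for all 4 solutes start from 1 shared level per series, fitted to all arrays of that series. In limma 0 of 16 tests passed, with a lowest adjusted p of 0.584 and 1 unadjusted p under 0.05, for AT1G21326 with NaCl (difference 0.74, SE 0.32). These are not the gaps between the replicate slopes given above, which come from a separate line for each solute through its own arrays and the control array of that replicate and were not tested: for AT2G22880 with PEG the modelled difference was 0.04 (interval -0.48 to 0.57), where the slopes above were 0.63 and 1.15. Over all genes such a difference was called for 0.0106% with NaCl, 0% with sorbitol, 0.0424% with PEG and 0.0884% with ethylene glycol.

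Across the 16 group means AT1G21326 and AT2G22880 were the most alike of the members, with r = 0.83 (0.69 in replicate 1 and 0.89 in replicate 2). AT1G17147 correlated at 0.70 with AT2G22880, 0.64 with AT1G21326 and 0.56 with AT1G80450. AT1G80450 had r = 0.05 with AT2G22880 and -0.09 with AT1G21326. These values describe points that share arrays and series.

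Outside the members, the named genes with the most similar pattern were found by Pearson's r over the 16 group means. Their slopes are per mM of solute, so that the pair of ions of NaCl counts once. For AT1G17147 they were WRKY41, which encodes a WRKY transcription factor (r = 0.917), AT1G19020 (0.915) and AT4G20000 (0.909), a VQ gene itself. For AT1G21326 they were AT3G02840 (0.904), AT3G16510 (0.889) and AT5G08240 (0.885). AT3G02840 had a NaCl slope of 1.61 log2 units per 100 mM and a PEG slope of 0.48. For AT1G80450 they were AT1G70420 (0.88), AT2G36690 (0.877) and AT2G11570 (0.876). AT1G70420 had a PEG slope of 0.38 against 0.03 for NaCl. The PEG slope was smaller for AT2G36690, at 0.26, and for AT2G11570, at 0.08, with NaCl slopes of -0.02 and -0.01. For AT2G22880 they were AT5G35735 (0.949), AT4G02200 (0.946) and AT3G59080 (0.946). AT5G35735 had a slope of 0.86 for NaCl and 0.38 for ethylene glycol.

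None of the measured genes adjacent to a member passed the threshold for a dose slope in limma. The tested neighbours were AT1G17145 and AT1G17150 beside AT1G17147, AT1G21323 beside AT1G21326 and AT2G22890 beside AT2G22880. Their slopes lay between -0.40 and 0.20 log2 units per 100 mM and 0 of 16 passed, with a lowest adjusted p of 0.334 for AT2G22890 with PEG, at -0.31. AT2G22890 had unadjusted p-values under 0.05 for sorbitol (0.0165), PEG (0.0457) and ethylene glycol (0.0218). Mean levels over all arrays were 5.72 for AT1G17145, 2.08 for AT1G17150, 1.62 for AT1G21323 and 1.87 for AT2G22890. Apart from AT1G17145 these levels are low, and a lack of change there says little. Neither gene adjacent to AT1G80450 (AT1G80440 and AT1G80460) had a probe set of its own.

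Of 30 other VQ genes listed, 17 had a probe set of their own. With NaCl 1 of 17 rose and 0 fell, where 0.891% of all genes rose and 0.202% fell. No slope passed in limma with sorbitol (0.343% of all genes rose and 0.134% fell), PEG (0.53% and 0.481%) or ethylene glycol (0.212% and 0.00354%). An unadjusted p under 0.05 was reached by 4, 2, 6 and 4 of the 17 with NaCl, sorbitol, PEG and ethylene glycol, and by 9.47%, 8.5%, 14.5% and 5.06% of all genes. These 4 comparisons share the control arrays. Positive slopes were seen for 8, 8, 10 and 8 of the 17 genes with NaCl, sorbitol, PEG and ethylene glycol, and the medians lay between -0.01 and 0.03 log2 units per 100 mM. Among these genes the NaCl slopes ranged from -0.32 to 1.09, per mM of solute. Their mean levels over all arrays ran from 1.63 for AT1G32585 to 8.41 for AT2G44340. Several were low, such as AT1G78410 at 2.11 and AT5G65170 at 2.25, and a small slope in a gene at such a level says little.

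The VQ gene that rose with NaCl was AT3G56880. Its control arrays read 7.45 and 6.76 in replicates 1 and 2, and NaCl at 25, 50, 75 and 100 mM gave 6.84, 7.28, 7.33 and 8.01 in replicate 1 and 6.58, 7.29, 7.74 and 7.86 in replicate 2. Both replicates were below the control at 25 mM and above it at 100 mM. The slope was 0.99 log2 units per 100 mM (SE 0.15, adjusted p = 0.000212; without the block 0.257), and with any 1 array left out the adjusted p stayed between 5.5e-06 and 0.0248. The call was lost for the average over NaCl doses minus control, which was 0.26 log2 units (adjusted p = 0.574), and the slope over the treated doses alone was 1.57 (adjusted p = 6.79e-05). AT4G20000 had a NaCl slope of 1.09 (SE 0.28, adjusted p = 0.06) and a PEG slope of 0.72 (SE 0.20, adjusted p = 0.0699). Its series lay far apart, with the control at 4.22 in replicate 1 and 2.37 in replicate 2.

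**Figure D4:**
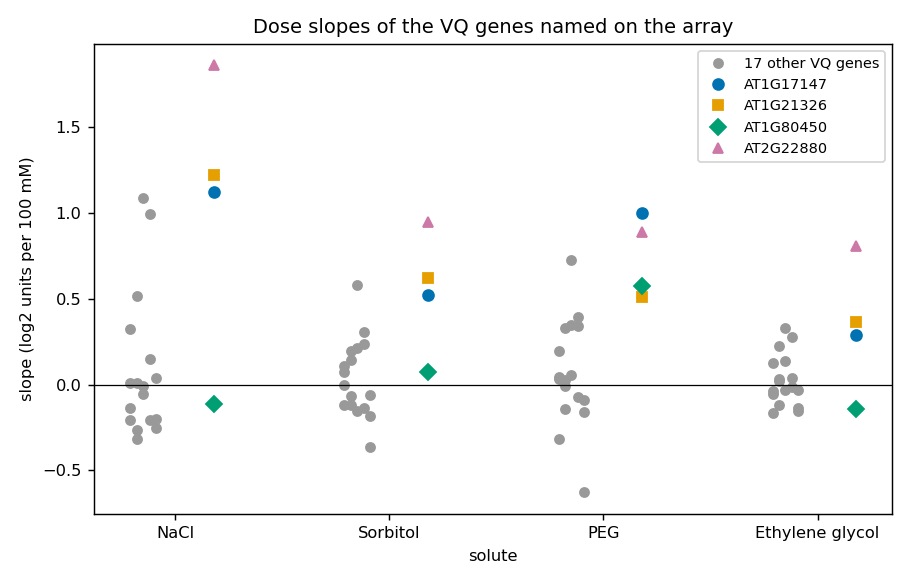
Dose slopes in log2 units per 100 mM for the VQ genes with a probe set of their own, by solute, with the 4 members marked apart from the 17 others. Slopes are per mM of solute, so the pair of ions of NaCl counts once. The other genes centre near 0, with medians from -0.01 to 0.03, and AT4G20000 at 1.09 and AT3G56880 at 0.99 have the highest NaCl slopes among them. Mean levels of the other genes ran from 1.63 to 8.41, and slopes of the dimmest ones say little.

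Of the WRKY genes listed, 1 of 13 in group I and 0 of 16 in group IIc had a probe set of their own, and 0 of 9 MAP kinase cascade genes did. The gene measured was WRKY20, with a NaCl slope of -0.29 log2 units per 100 mM (SE 0.12, unadjusted p = 0.0278, adjusted p = 0.414) and slopes of -0.09 for sorbitol, -0.12 for PEG and -0.03 for ethylene glycol, none of which passed. Other WRKY genes, such as WRKY41 above, were measured but are not in these lists.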

How the data were processed

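Per the labels, biotin-labelled total RNA of 32 root samples was measured on Affymetrix whole-transcript arrays, 1 sample an array. The submitters' processing notes name GCRMA, the Transcriptome Analysis Console and the Affymetrix Expression Console, without versions. The values deposited by the authors span 0.2 to 12.45, a span that led to their reading as log2. Neither the log base nor a scaling step between arrays is given in the sources used here. Array medians lay between 4.11 and 4.24. Precision is limited by the number of arrays. No array repeated another, and 0 columns were set aside.

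Of 28477 probe sets, 16746 named 1 gene, 758 several and 10973 none; genes were named only from the first kind, with symbols from a RefSeq table (TAIR10.1, names and neighbours only), keeping the probe set with the highest mean. This gave 28283 genes tested, 16552 of them named. limma 3.58.1 in R 4.3.3 was fitted to all arrays with 1 mean per group, the title-number series as replicate block and a mean-variance trend, with Benjamini-Hochberg adjustment over all genes at 0.05. The pairing rests on title numbers, since no label states one. Arrays of 1 series deviated together in all 120 pairs of groups (r 0.501 to 0.767, median 0.672), and the median residual SD was 0.190 with the block and 0.272 without it. The members, the gene lists (VQ, WRKY and MAP kinase genes, from general knowledge of the families, and root and shoot markers), the block and the tests were chosen with earlier results of these data known. Besides the members, genes were named when called in a list (otherwise the lowest p), when among the 3 most correlated with a member, or when adjacent to one. The fit was tested on simulated data. Alternatives were no block, median centring, quantile normalisation, no trend, no dim genes, fewer groups, mean probe sets, each array left out and other slope definitions.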

Additional observations from a re-analysis of the deposited data

How the results depend on the processing

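Without the replicate block the values stayed the same but no contrast between solutes passed: 0.485 (AT1G17147) and 0.475 (AT1G21326) for NaCl minus ethylene glycol, 0.9575 and 1.005 (AT1G17147 and AT1G80450) for PEG minus ethylene glycol, -0.6825 and -0.8425 (the same genes) for sorbitol minus PEG, and 0.79 and -0.9675 (AT1G21326 and AT1G80450) for NaCl minus PEG; the count of other VQ genes rising with NaCl became 0. Without a variance trend the AT1G21326 difference of 0.475 in NaCl minus ethylene glycol no longer passed. With only the compared groups in the fit, -0.6825 for AT1G17147 in sorbitol minus PEG did not pass and 0.7225 for AT2G22880 in NaCl minus PEG did (also without the dimmest genes), while the other VQ genes rising became 2 for NaCl and 2 for PEG. Rising VQ genes with NaCl were 2 after centring and 2 without dim genes; quantile normalisation gave 1 with PEG and turned AT1G21326 in sorbitol minus PEG to -0.0016.

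Over the treated doses alone, slopes moved to -0.386 (AT1G80450) and 2.382 (AT2G22880) for NaCl, 0.83 (AT1G21326) and 1.23 (AT2G22880) for sorbitol, 1.17 (AT1G17147), 0.924 (AT1G21326) and 1.16 (AT2G22880) for PEG and 1.05 (AT2G22880) for ethylene glycol, reversed to -0.226 for AT1G80450 with PEG, and gave 1 other VQ gene rising with sorbitol. Averages per 100 mM of mean dose gave 0.162 (AT1G80450) and 1.338 (AT2G22880) for NaCl, 0.8189 (AT1G80450, PEG), 0.564 (AT2G22880, ethylene glycol), 0 other VQ genes rising with NaCl, and -0.02 for AT3G56880 with sorbitol.

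With 1 array left out, the AT2G22880 PEG slope ran from 0.6635 (without control replicate 2) to 1.1199 (without control replicate 1). Rising VQ genes ranged from 1 to 2 for NaCl and 0 to 1 for PEG, and falling ones from 0 to 1 for PEG. NaCl minus sorbitol ranged from -0.01 to 0.48 for AT1G21326 and from -0.1493 to 0.0693 for AT2G22880. For AT1G21326, NaCl minus ethylene glycol ranged from 0.3525 to 0.5975, sorbitol minus PEG from -0.0245 to 0.0495 and NaCl minus PEG from 0.545 to 1.035. Sorbitol minus PEG for AT1G17147 ranged from -0.7875 to -0.5775. The cause of these shifts was not tested, apart from the fewer arrays or genes that a setting itself brings. The main limits are 2 arrays a group, a pairing read from title numbers, and 1 probe set a gene.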

Other observations

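AT3G56880, a VQ gene outside the 4 members, was lower than the control at the lowest dose of every solute in both replicates, a pattern picked out after its values were seen and not tested. In replicate 1 the control read 7.45, against 6.84 at NaCl 25 mM, 6.77 at sorbitol 50 mM, 7.14 at PEG 75 mM and 7.12 at ethylene glycol 50 mM. Replicate 2 had a control of 6.76, against 6.58, 6.53, 6.58 and 6.73. All 8 lowest-dose arrays were thus below the control of their series, by 0.03 to 0.68 log2 units. Among the members this held for 2 of 8 lowest-dose arrays of AT2G22880, NaCl 25 mM and ethylene glycol 50 mM in replicate 1, for 5 of 8 of AT1G80450, 2 of 8 of AT1G21326 and 1 of 8 of AT1G17147. The 8 differences share 2 control arrays.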
